A study of Homo sapiens with 8 samples.

Results

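The genes described here encode the eukaryotic translation initiation factors (gene names beginning EIF), the elongation factors (EEF) and the aminoacyl-tRNA synthetases (names ending in ARS or ARS2, with EPRS, FARSA and FARSB). They were chosen by gene name, with no measured value involved, from the gene names attached to H3K9ac peaks, and 96 of the 12186 genes named there matched. Acetylation of histone H3 at lysine 9 (H3K9ac) and lysine 27 (H3K27ac) marks the promoters of active genes, and H3K27ac also marks active enhancers. The genes held 151 H3K9ac peaks in the stromal list and 76 in the astromal list. H3K27ac peaks centred within 2 kb of one of these H3K9ac peaks were assigned to the same gene, which gave 151 peaks in the stromal list and 157 in the astromal list.

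Chromatin came from MIA PaCa-2, an established human pancreatic cancer cell line, grown as spheroids in a hyaluronan hydrogel. In the stromal condition the gel (HyStem, made from Glycosil and Extralink) also held the collagen-derived component Gelin-S, and the cells received medium conditioned by immortalised myofibroblasts that had been grown from resected human pancreatic tumours. In the astromal condition water replaced Gelin-S and the medium was plain DMEM with the same low serum. Gel component and conditioned medium changed together, so their effects cannot be told apart. Each mark had 1 library per condition, so no p-value is given and every interval covers counting error only.

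The libraries differed in ways that touch every comparison. The stromal H3K9ac library held an estimated 7569604 tags, of which 5.81% lay in its 20326 peaks, and the astromal one 3925277 tags, of which 1.76% lay in its 7141 peaks. A median H3K9ac peak rested on 20 tags in the stromal list and on 9 in the astromal list. The H3K27ac libraries were closer, with 17190695 stromal and 13453902 astromal tags and 15093 and 14489 peaks in those lists. Their median was 20 and 18 tags per peak. Median peak width was 175 bp in the stromal and 197 bp in the astromal H3K27ac list, and 210 and 200 bp for H3K9ac. Of 7 epithelial marker genes, 4 carried H3K9ac (KRT8, KRT18, KRT19 and SOX9), none of 3 leukocyte or 2 endothelial markers did, and 3 of 8 fibroblast markers did (COL1A1, COL1A2 and ACTA2), each in the stromal list alone, where 52.2% of all genes were. KRT8 and KRT19 also had H3K9ac in the stromal list alone, KRT18 in both lists and SOX9 in the astromal list alone. H3K27ac was in both lists for KRT8, KRT18 and KRT19, and in the astromal list alone for SOX9. COL1A2 had 67.5 normalised H3K27ac tags in stromal and 89.2 in astromal cells. VIM, a mesenchymal gene that many cancer cell lines express, had both marks in the stromal lists alone.

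Translation begins when eIF2, bound to GTP and the initiator tRNA, joins the small ribosomal subunit with eIF1, eIF1A, eIF3 and eIF5, and eIF4F (the cap-binding protein eIF4E, the scaffold eIF4G and the helicase eIF4A) brings the mRNA. The kinases PERK, GCN2, PKR and HRI phosphorylate eIF2 under stress, which lowers general initiation and raises translation of the transcription factor ATF4, whose known targets include synthetase genes. Elongation uses eEF1A, which delivers aminoacyl-tRNA, and eEF2, which moves the ribosome along. Synthetases charge tRNAs, most amino acids having a cytosolic enzyme and a separate mitochondrial one, while GARS and KARS serve both compartments. The exocrine pancreas is known for high rates of protein synthesis.

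The first set of promoter sequences is shown because it falls among the cytosolic synthetases. It holds the letters TGATGCAA on either strand, the form of the ATF4 element searched here. RefSeq promoters (GRCh38.p14, 250 bases before to 50 bases after each start) were at hand for 79 of the 96 genes, 19 of them with more than 1 start, and a gene counted if any of its starts held the letters. The element was found in 6 of them, all cytosolic synthetases (6 of 16 with a promoter, against 0 of 13 mitochondrial synthetases), and in 1.08% of 27305 genes with a promoter and 0.63% of the 9678 of these named in the H3K9ac lists. The 6 stretches below run 5′ to 3′ on the strand of the gene, with the element in capitals (TTGCATCA is its reverse complement).
AARS: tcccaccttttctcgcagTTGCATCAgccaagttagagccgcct
CARS: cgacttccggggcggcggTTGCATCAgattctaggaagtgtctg
IARS: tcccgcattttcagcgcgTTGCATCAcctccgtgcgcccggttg
MARS: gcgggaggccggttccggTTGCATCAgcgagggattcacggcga
NARS: cctcagatctacgctctcTGATGCAAcgc
TARS: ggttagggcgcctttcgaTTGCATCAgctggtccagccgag
These lie at chr16:70289668-70289711, chr11:3057400-3057443, chr9:92293685-92293728, chr12:57488046-57488089, chr18:57621812-57621840 and chr5:33440949-33440989, with the genes on the minus strand except MARS and TARS. The first capital lies at -187 from the annotated start in AARS, -2 in CARS, -13 in IARS, -4 in MARS, 15 in NARS and 3 in TARS. A match of letters is a description and not a binding site.

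A second set is shown because it falls among the cap-binding, scaffold and helicase factors. The E-box CACGTG was found in 5 of 11 of their promoters, in 22.8% of the 79 genes, and in 8.77% of all genes with a promoter and 12.8% of those in the H3K9ac lists. EIF4E and EIF4G1 each held 2 copies. The stretches below have the E-box in capitals.
EIF4A3: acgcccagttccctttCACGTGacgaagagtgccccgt
EIF4B: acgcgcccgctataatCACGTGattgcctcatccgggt
EIF4E distal copy: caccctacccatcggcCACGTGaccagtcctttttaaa
EIF4E proximal copy: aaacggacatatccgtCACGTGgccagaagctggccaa
EIF4G1 distal copy: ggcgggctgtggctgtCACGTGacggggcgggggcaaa
EIF4G1 proximal copy: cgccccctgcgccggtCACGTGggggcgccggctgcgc
EIF4H: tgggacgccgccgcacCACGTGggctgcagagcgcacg
They lie at chr17:80147228-80147265 (minus), chr12:53006418-53006455 (plus), chr4:98929337-98929374 and chr4:98929184-98929221 (minus), chr3:184314446-184314483 and chr3:184314523-184314560 (plus) and chr7:74174141-74174178 (plus). The first E-box base lies at -121 in EIF4A3, -22 in EIF4B, -225 and -72 in EIF4E, -144 and -67 in EIF4G1 and -199 in EIF4H.

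Many mRNAs of the translation machinery start with a C and a run of pyrimidines (the 5′ TOP), through which mTORC1 is known to control their translation. A C followed by at least 4 pyrimidines, starting within 5 bases of an annotated start, was present for 40.5% of the 79 genes, 25.2% of all genes and 29.1% of those in the H3K9ac lists, and for 5 of 7 eIF3 subunits. The examples below are the starts of both elongation GTPases, of the eEF1B subunit EEF1B2, of 2 initiation factors and of 1 synthetase, with the pyrimidine run in capitals and 10 bases before the start included.
EEF1A1: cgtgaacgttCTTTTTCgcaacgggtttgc
EEF2: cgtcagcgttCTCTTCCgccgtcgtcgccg
EEF1B2: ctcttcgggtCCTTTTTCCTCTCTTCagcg
EIF3F: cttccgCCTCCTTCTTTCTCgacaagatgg
EIF4A2: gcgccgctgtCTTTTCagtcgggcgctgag
QARS: gcctaagtttCTTTTagtttccggtgtctc
They lie at chr6:73521013-73521042 (minus), chr19:3985444-3985473 (minus), chr2:206159885-206159914 (plus), chr11:7987327-7987356 (plus), chr3:186783567-186783596 (plus) and chr3:49104738-49104767 (minus).

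H3K9ac was listed for all 96 genes in stromal cells and for 59 of them also in astromal cells. The other 37 were in the stromal list alone and none in the astromal list alone, against 46.8% of all named genes in both lists, 52.2% in the stromal list alone and 0.935% in the astromal list alone. A list holds peaks above the caller's threshold, so a gene without a peak has no known level, and fewer cells with a mark cannot be told apart from less of it per cell. Genes in both lists had higher stromal levels by the median: the 59 genes had a median of 66.1 normalised tags (per 10000000 tags, summed over a gene's peaks) in stromal cells and the 37 a median of 35.7. All 18 genes at or above 80 normalised tags were in both lists, against 85.5% of all genes at that level, and none of the 9 genes below 20 was, against 6.35%. Between these levels the order was uneven, with 17 of 30 genes at 20 to 40 tags in both lists, 10 of 22 at 40 to 60 and 14 of 17 at 60 to 80, against 34.6%, 55.3% and 73.2% of all genes.

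The strongest genes with H3K9ac in the stromal list alone came from several steps of translation. EEF1A2, the eEF1A form of muscle and neurons, had 74.0 normalised tags in stromal cells, EEF2K, the kinase that inactivates eEF2, had 73.9, of which 31.7 lay within 1 kb of its start, and EIF5A, the hypusine-bearing factor that relieves stalled ribosomes, had 71.3. EIF2AK2 (PKR, activated by double-stranded RNA) and KARS, the lysyl enzyme, each had 54.2. EEF1D, part of the eEF1B exchange factor, had 51.5, WARS2 50.2, FARSA and AARS2 48.9 each, and EIF4ENIF1, which carries eIF4E into the nucleus, 44.9. All of these had no astromal H3K9ac peak.

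H3K27ac was more evenly listed. It lay near 79 genes in both lists, 6 in the stromal list alone, 8 in the astromal list alone and 3 in neither, against 65.4%, 5.2%, 7.64% and 21.8% of all genes. The 6 were EEF1A2 (14.5 normalised tags), EEF2 (14.0), EIF3F (6.40), EIF3H (6.40), EIF3M (27.9) and LARS2 (9.89), all values from stromal cells, and 3 of them are eIF3 subunits. Of these subunits, EIF3F and EIF3H each rested on 11 tags before normalisation, which equals the peak caller's tag threshold for that library. The 8 were AARS2 (8.18), EARS2 (11.1), EEF1E1 (13.4), EIF1B and its antisense RNA EIF1B-AS1 (20.8, from shared peaks), HARS and HARS2 (17.1, from shared peaks) and RARS (8.92), all values from astromal cells. EIF4E1B, a cap-binding protein of oocytes, EIF5A2 and IARS2 had no H3K27ac in either list. For this mark the caller also required 4-fold over the surrounding 10000 bp. That step removed 12583 of 30936 putative stromal peaks and 11543 of 27707 astromal ones. A missing H3K27ac peak therefore need not mean low signal.

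**Figure D1:**
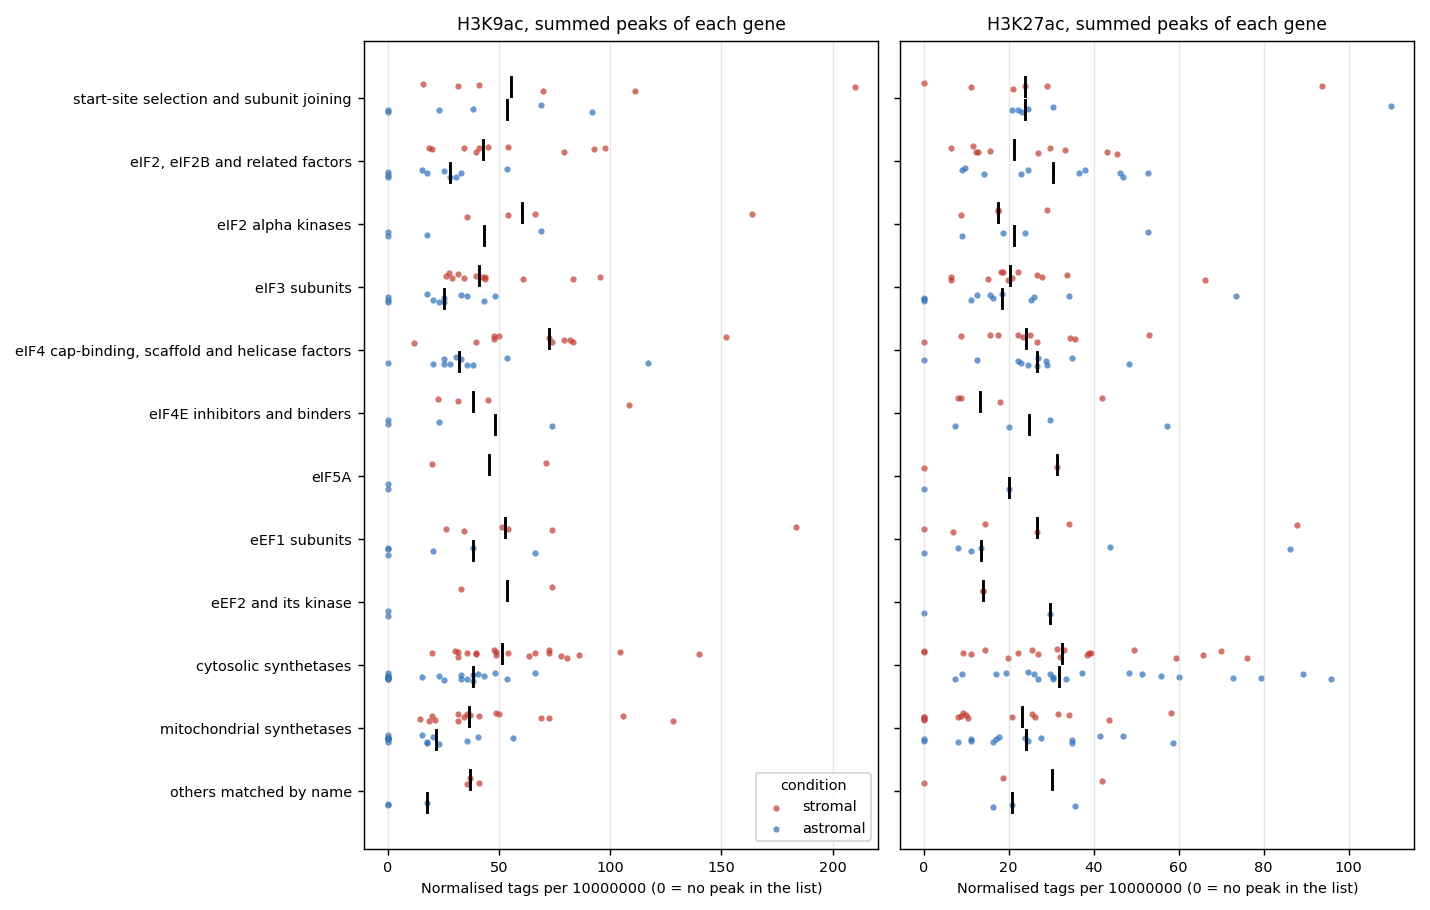
Normalised tags per 10000000 (horizontal axis, linear) summed over the peaks of each gene, for H3K9ac (left panel) and H3K27ac (right panel), by role group (rows), with stromal values above astromal values in each row. Each point is 1 gene, a point at 0 has no peak in that list, and black bars are medians over genes with a peak; EIF1 at 210.0 and EEF1A1 at 183.6 stromal H3K9ac tags are the highest points of their rows.

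Median levels of the 96 genes were above those of all named genes in each of the 4 libraries. Over genes with a peak, median H3K9ac was 46.2 normalised tags in stromal and 33.1 in astromal cells, against 41.0 and 25.5 over all genes, and median H3K27ac was 23.8 in stromal and 26.0 in astromal cells, against 19.8 and 21.6 over all genes. The range was wide, with stromal H3K9ac between 11.9 for EIF4E1B and 210.0 for EIF1. The plot of levels by role group shows that the groups overlapped in each library.

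Among factors of start-site selection and subunit joining, EIF1, which guards the choice of the start codon, had the highest summed stromal H3K9ac of the 96 genes, 210.0 normalised tags, with 91.7 in astromal cells. Its summed H3K27ac, 93.7 stromal and 110.0 astromal tags, was also the highest. Part of both marks came from peaks far upstream. Within 1 kb of its start site EIF1 had 137.4 stromal and 73.9 astromal H3K9ac tags, the rest lying between -22140 and -23067 bp, and by that count EIF4A2 (151.9) and GARS (140.1) were above it in stromal cells. EIF1B, its paralog, was the lowest of the group, with 15.9 in stromal cells and no astromal peak.

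Among eIF2 and eIF2B genes, EIF2S3, the GTP-binding gamma subunit, was highest, with 97.8 stromal and 53.5 astromal H3K9ac tags. Within 1 kb of its start it had 74.0 stromal tags, fewer than EIF2B5 (92.5) and EIF2S2 (79.3). EIF2B2, an eIF2B subunit, was lowest, with 18.5 in stromal cells and no astromal peak. EIF2S1, the alpha subunit that the stress kinases phosphorylate, had 34.3 stromal and 28.0 astromal H3K9ac tags and 45.4 and 46.8 H3K27ac tags. Its H3K27ac was the highest of the group in stromal cells. EIF2S1 shares its promoter with ATP6V1D, and reads there cannot be divided between the genes.

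All 4 eIF2 kinases had H3K9ac in stromal cells and 2 in astromal cells. EIF2AK1 (HRI, which senses haem) had 163.8 stromal and 68.8 astromal tags, of which 95.1 and 45.9 lay within 1 kb of the start. EIF2AK3 (PERK, the kinase of the endoplasmic reticulum) had 66.1 stromal and 17.8 astromal tags. EIF2AK4 (GCN2, which senses uncharged tRNA) was the lowest, with 35.7 in stromal cells and no astromal peak.

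The eIF3 subunits, which form the largest initiation factor, had a median of 41.0 stromal and 25.5 astromal H3K9ac tags, the same as all genes. In stromal cells EIF3A, a core scaffold subunit, was highest with 95.2 tags (35.7 astromal), and EIF3H lowest with 26.4 (25.5 astromal). Of the subunits with an astromal peak, EIF3D (48.4) was highest and EIF3K (17.8) lowest in astromal cells. Within 1 kb of the start, EIF3B (83.2) was above EIF3A (71.4) in stromal cells. EIF3B had the highest H3K27ac of the group, 66.3 stromal and 73.5 astromal tags.

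The cap-binding, scaffold and helicase factors had the highest median stromal H3K9ac of the groups with more than 2 genes, 72.7 normalised tags, above 83.3% of all genes, and 10 of 11 were in both H3K9ac lists. Their astromal median was 31.9. EIF4A2, an eIF4A helicase, had 151.9 stromal and 117.2 astromal tags, and its astromal level was the highest of the 96 genes. EIF4A1, the major helicase form, had 39.6 stromal and 30.6 astromal tags. EIF4E had 74.0 and 38.2, and EIF4G1 had 47.6 and 25.5, in those libraries. The lowest was EIF4E1B, with 11.9 in stromal cells and no astromal peak. Among the proteins that hold eIF4E back, EIF4EBP1 had 108.3 stromal and 73.9 astromal tags, while EIF4EBP2 had 22.5 and 22.9.

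In elongation, EEF1A1, the eEF1A form of most tissues, stood far above the rest of its group, with 183.6 stromal and 66.2 astromal H3K9ac tags and 87.8 and 86.2 H3K27ac tags. Only 99.0 stromal and 48.4 astromal H3K9ac tags lay within 1 kb of its start, and the other H3K9ac peaks lay between -59622 and -65581 bp in intergenic sequence. All 3 of its stromal H3K27ac peaks lay there too, between -59994 and -65558 bp. Of its astromal H3K27ac, only a peak of 26.0 tags, at 162 bp, was near the start. The listed H3K27ac peaks of EEF1A1 were 4.15 to 5.24-fold over local background, where the caller required 4-fold. A start without a listed peak therefore has no known level. EEF1B2 was lowest for H3K9ac, with 26.4 stromal and 20.4 astromal tags. EEF2 had 33.0 stromal H3K9ac tags and 14.0 stromal H3K27ac tags, with no astromal peak of either mark. EIF5A had 71.3 stromal H3K9ac tags, and 31.4 stromal and 20.1 astromal H3K27ac tags, and EIF5A2, its paralog, had 19.8 stromal H3K9ac tags only.

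The remaining genes matched by name were EIF1AD, which resembles eIF1A, with 35.7 stromal and 17.8 astromal H3K9ac tags, and the antisense RNAs EIF1B-AS1 and EIF3J-AS1, with 37.0 and 41.0 in stromal cells only. These RNAs start beside EIF1B and EIF3J, and their peaks cannot be divided between the partners.

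Between conditions, normalised H3K9ac was higher in stromal than in astromal cells for 56 of the 59 genes in both lists, as it was for 5378 of 5706 genes at large, whose median log2 ratio (stromal over astromal) was 0.99. Ratios were therefore centred on the median of all genes, and a gene was called when it was at least 2-fold from that median with a 95% interval leaving out 0. By this rule 0 of the 59 genes were higher and 1 was lower, against 5.98% and 3.56% of all genes. EIF3D, the eIF3 subunit that can bind the cap of some mRNAs, had 43.6 stromal and 48.4 astromal H3K9ac tags in 2 peaks per list, a centred log2 ratio of -1.14 (95% interval -1.99 to -0.24) from 33 and 19 tags. By its highest peak alone the ratio was -0.83 and was not called.

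The centred H3K9ac ratios of the 59 genes had a median of -0.06 and ran between -1.14 and 0.97. The genes with the highest ratios were EIF4B, the helper of the eIF4A helicase (0.97), EIF2AK3 (0.90), EIF2B5, the catalytic eIF2B subunit (0.87), EIF3K (0.78) and NARS2 (0.77). Each of these had 2 stromal peaks and 1 astromal peak, the astromal one resting on 7 to 10 tags before normalisation. By the highest peak their ratios, in the same order, were 0.55, 0.62, 0.70, 0.16 and 0.29. EIF4B had 79.3 stromal and 20.4 astromal tags. Among the genes with the lowest ratios after EIF3D were EIF3E (-1.05), EIF4EBP2 (-1.02) and SARS (-0.97). SARS had 48.9 stromal tags in 1 peak and 48.4 astromal tags in 2 peaks, and by the highest peak its ratio was 0.13. By the highest peak of each gene, EIF3B was called higher (centred log2 ratio 1.19), and no gene lower, against 0.21% higher and 0.613% lower of all genes. EIF3B had 1 stromal H3K9ac peak of 83.2 tags and 2 astromal peaks of 22.9 and 20.4 tags, and summed over peaks its ratio was -0.04.

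**Figure D2:**
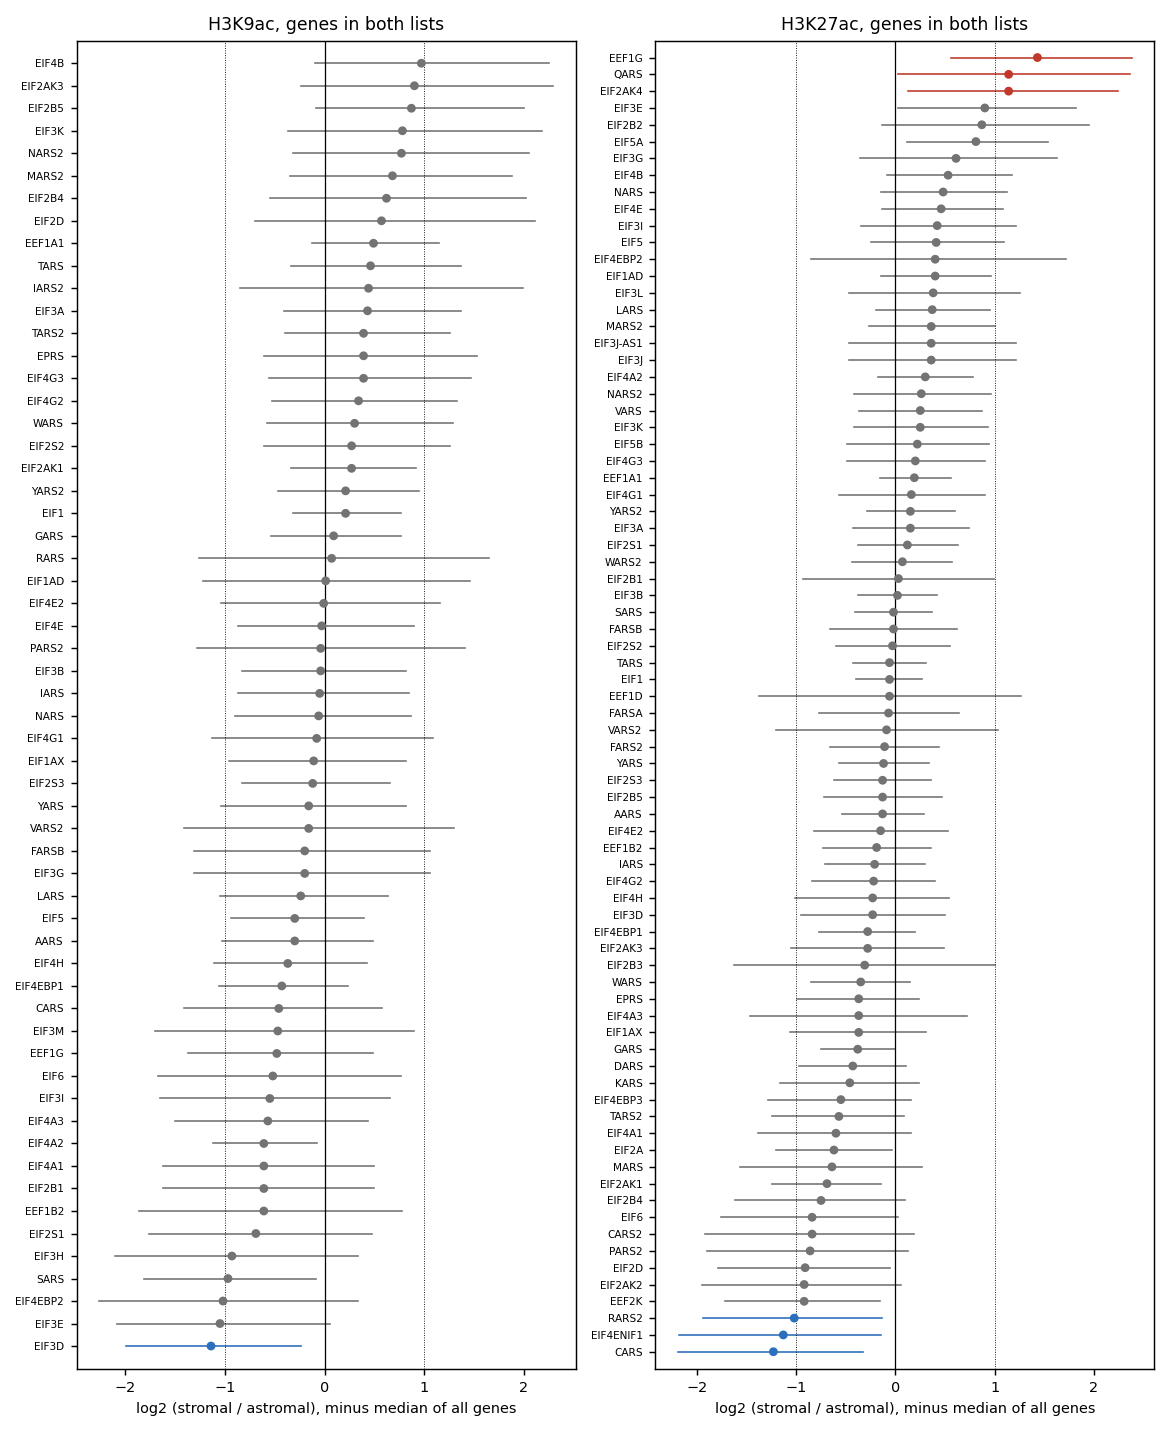
Log2 ratio of normalised tags, stromal over astromal, minus the median of all genes (horizontal axis), with 95% counting intervals, for the 59 genes with H3K9ac in both lists (left panel) and the 79 with H3K27ac in both lists (right panel), 1 gene per row, with 1 gene of each panel not shown. Dotted lines mark 2-fold; red genes were called higher in stromal cells, blue genes lower, and most intervals cross 0, with EIF3D at -1.14 the 1 called gene for H3K9ac.

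For H3K27ac, the median log2 ratio over all genes was -0.17, which is also the log2 ratio of stromal over astromal peak width. The part of peak width in this shift was not tested. Of the 79 genes in both lists, 53 had lower values in stromal cells. After centring, 3 were called higher and 3 lower, against 5.54% and 6.2% of all genes. EEF1G, the eEF1B gamma subunit, had 26.7 stromal and 11.1 astromal tags (centred log2 ratio 1.43, interval 0.56 to 2.38). EIF2AK4 had 17.5 stromal and 8.92 astromal tags (1.14, 0.13 to 2.24), and QARS, the glutaminyl enzyme, 14.5 and 7.43 (1.14, 0.03 to 2.36). The astromal value of QARS rested on 10 tags before normalisation, which equals the peak caller's tag threshold for that library. The 3 genes lower in stromal cells were CARS, the cysteinyl enzyme, with 9.31 stromal and 24.5 astromal tags (-1.23, -2.19 to -0.33), EIF4ENIF1 with 8.14 and 20.1 (-1.13, -2.18 to -0.15) and RARS2 with 10.5 and 23.8 (-1.02, -1.94 to -0.14).

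All 6 calls went with 2 peaks in the higher library and 1 in the lower one. By the highest peak of each gene none was called, against 0.49% higher and 0.866% lower of all genes, the ratios being 0.58 for EEF1G, 0.26 for EIF2AK4, 0.23 for QARS, -0.40 for CARS, -0.15 for EIF4ENIF1 and -0.30 for RARS2. EIF3E (0.90) and EIF2B2 (0.87) followed among the highest ratios, and EEF2K and EIF2AK2 (both -0.92) among the lowest, none of them called.

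The median ratio of the eIF3 subunits lay above the genome-wide median for H3K27ac and below it for H3K9ac, over partly different subunits. For H3K27ac 8 of 9 with a ratio lay above it (median 0.36, or 0.19 by the highest peak), and for H3K9ac 7 of 9 lay below it (median -0.47, or -0.24 by the highest peak). Of the subunits with both ratios, EIF3B, EIF3E, EIF3G and EIF3I lay above for H3K27ac and below for H3K9ac, EIF3A and EIF3K lay above for both and EIF3D below for both. EIF3B lay close to the median for both marks (H3K9ac -0.04, H3K27ac 0.02). By the highest peak EIF3E, EIF3I and EIF3K kept their sides and the others did not. EIF3B (H3K9ac 1.19, H3K27ac 0.14) then lay above for both and EIF3A (-0.47 and -0.15) below for both. EIF3G lay above for H3K9ac (0.12) and below for H3K27ac (-0.25), and EIF3D above for H3K27ac (0.54) and below for H3K9ac (-0.83). The difference between the marks was not tested, and each ratio rests on 1 library per condition. EIF3E had 20.9 stromal and 12.6 astromal H3K27ac tags and 31.7 stromal and 33.1 astromal H3K9ac tags. EIF3M had 27.9 stromal H3K27ac tags in 2 peaks and no astromal peak, and 29.1 stromal and 20.4 astromal H3K9ac tags.

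Cytosolic synthetases had higher medians of both marks than mitochondrial ones in all 4 libraries. Median H3K9ac was 51.5 normalised tags for the cytosolic and 36.4 for the mitochondrial genes in stromal cells, and 38.2 and 21.6 in astromal cells. Median H3K27ac was 32.6 for the cytosolic and 23.2 for the mitochondrial genes in stromal cells, and 31.9 and 24.2 in astromal cells. The groups overlapped in every library. In astromal cells 13 of 20 cytosolic and 8 of 16 mitochondrial genes had H3K9ac, against 47.8% of all genes. H3K27ac was listed for 18 of 20 cytosolic and 12 of 16 mitochondrial genes in stromal cells, and for 20 and 14 of them in astromal cells, against 70.6% stromal and 73% astromal of all genes.

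GARS, the glycyl enzyme, was the highest cytosolic gene, with 140.1 stromal and 66.3 astromal H3K9ac tags, and DARS, the aspartyl enzyme, the lowest, with 19.8 in stromal cells and no astromal peak. DARS had 32.0 stromal and 48.3 astromal H3K27ac tags, and it shares its promoter with DARS-AS1. The highest mitochondrial gene was YARS2, with 128.1 stromal and 56.1 astromal H3K9ac tags, and the lowest CARS2, with 14.5 in stromal cells and no astromal peak. EPRS, the fused glutamyl-prolyl enzyme, had 66.1 stromal and 25.5 astromal tags, WARS 80.6 and 33.1, and MARS 35.7 in stromal cells only. KARS, with 54.2 in stromal cells only, shares its promoter with TERF2IP.

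Where a cytosolic and a mitochondrial enzyme serve the same amino acid, 14 pairs could be compared within a library. For stromal H3K9ac the cytosolic gene was higher in 9 pairs, in 6 of them with an interval leaving out 0, and the mitochondrial gene in 5, in 2 of them beyond the interval. LARS over LARS2 had the largest log2 ratio, 1.97 (95% interval 1.11 to 2.94), from 72.7 and 18.5 tags, followed by EPRS over EARS2 with 1.74 (0.88 to 2.68). The pairs the other way round were YARS over YARS2, with -1.01 (-1.55 to -0.50), and MARS over MARS2, with -1.03 (-1.75 to -0.34). MARS2 drew 43.6 of its 72.7 tags from a peak at -11639 bp, and within 1 kb of its start it had 29.1. For astromal H3K9ac the cytosolic gene was higher in 2 pairs and the mitochondrial gene in 2, with 0 beyond the interval either way. A further 6 pairs had a cytosolic peak only, 3 a mitochondrial peak only and 1 had neither.

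For H3K27ac, the cytosolic gene was higher in 6 stromal pairs and 9 astromal pairs, and the mitochondrial gene in 3 stromal and 2 astromal pairs. A further 3 stromal and 2 astromal pairs had a cytosolic peak only, and 1 stromal pair had a mitochondrial peak only. The cytosolic gene was ahead beyond the interval in 3 stromal and 4 astromal pairs and the mitochondrial gene in 1 of each. In stromal cells that 1 was MARS over MARS2, with -1.51 (-2.34 to -0.73), where 20.4 of the 31.5 tags of MARS2 lay at -11675 bp. In astromal cells it was RARS over RARS2, with -1.42 (-2.51 to -0.42). The threonyl and valyl pairs had the cytosolic gene ahead beyond the interval in both conditions. VARS over VARS2 had log2 ratios of 1.75 (0.93 to 2.66) in stromal and 1.42 (0.53 to 2.38) in astromal cells. The threonyl genes had more tags, TARS having 76.2 and TARS2 20.9 tags in stromal cells (log2 ratio 1.86, interval 1.32 to 2.44) and 89.3 and 35.0 in astromal cells (1.35, 0.85 to 1.87). Their H3K9ac differed little, with 104.3 for TARS and 105.7 for TARS2 in stromal cells. The alanyl pair had the largest ratio, 3.16 (2.25 to 4.20) in astromal cells, from 72.8 tags at AARS and 8.18 at AARS2. HARS and HARS2 share a promoter, so their astromal H3K27ac peaks were the same peaks and this 1 pair was equal.

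**Figure D3:**
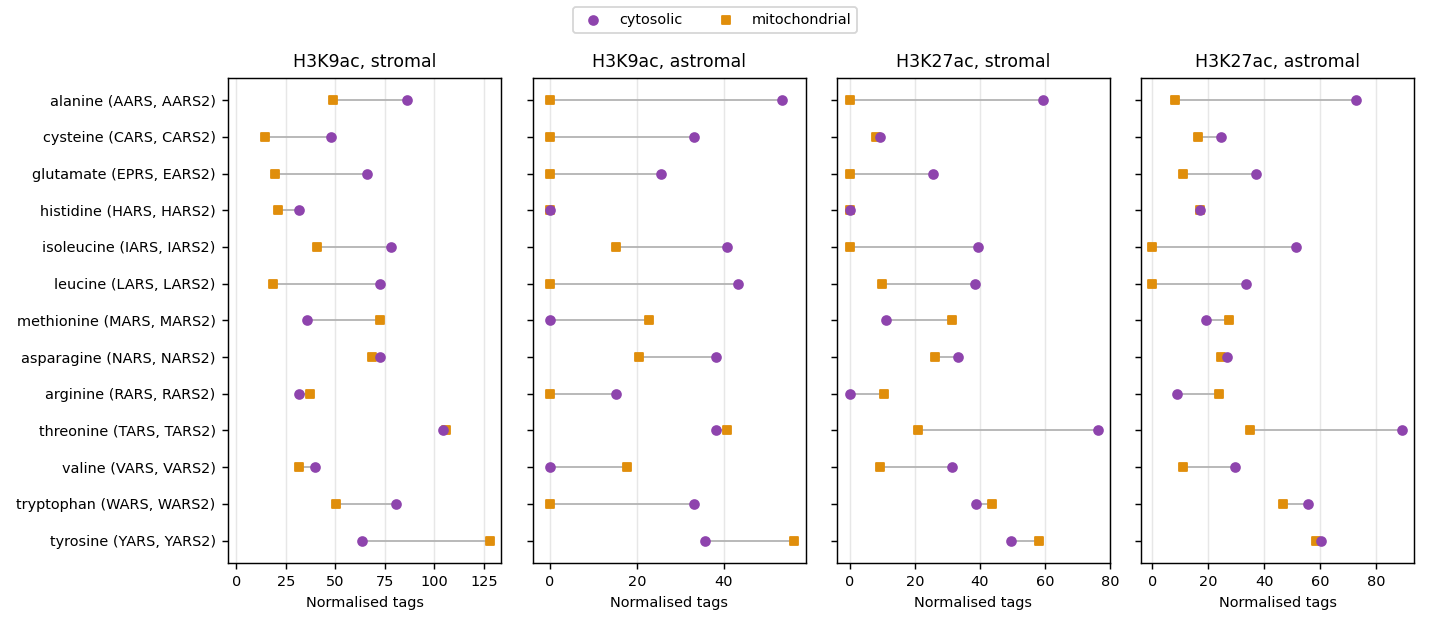
Normalised tags (horizontal axis, linear) of the cytosolic gene (purple circles) and the mitochondrial gene (orange squares) for 13 of the 14 amino acids (rows), in 1 panel per library. A point at 0 has no peak in that list; YARS2 at 128.1 and LARS2 at 18.5 in the stromal H3K9ac panel show the pairs with the mitochondrial and the cytosolic gene ahead.

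The 6 cytosolic synthetases whose promoter sequences are printed above with the ATF4 element had median H3K9ac of 75.3 normalised tags in stromal and 38.2 in astromal cells. The 10 cytosolic synthetases with a RefSeq promoter and no such match had 48.9 and 29.3. Median H3K27ac was 36.3 stromal and 39.0 astromal with the element, and 26.2 and 30.5 without it. The ranges overlapped, with stromal H3K9ac between 35.7 (MARS) and 104.3 (TARS) with the element and between 30.4 (QARS) and 140.1 (GARS) without it. In the eIF4 genes, median H3K9ac was 74.0 stromal and 35.7 astromal with the E-box, and 61.5 and 30.6 without it. Their median H3K27ac lay the other way, with 22.1 stromal and 23.0 astromal tags with the E-box, and 25.0 and 29.0 without it, and the ranges overlapped.

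Setting H3K27ac against H3K9ac in the same cells, the ratio was centred on all genes with both marks, since the marks come from different libraries. In stromal cells 11 of 85 genes were called higher for H3K27ac and 9 lower, against 13.4% and 12.9% of all genes, and in astromal cells 3 of 56 were higher and 6 lower, against 9.19% and 6.55%. The median centred log2 ratio was 0.16 in stromal and 0.15 in astromal cells. DARS had the highest stromal ratio, 2.03 (95% interval 1.19 to 2.96), followed by SARS, the seryl enzyme (1.85), EIF2S1 (1.74) and EEF1B2 (1.72). Of these, DARS, EIF2S1 and EEF1B2 share a promoter with another gene. An H3K9ac peak was counted for 1 gene, but an H3K27ac peak for every gene with an H3K9ac peak within 2 kb. At a shared promoter this counting favours a higher ratio, and its part in these values was not tested. EEF1D had the lowest, -1.54 (-2.61 to -0.58), followed by EIF3F (-1.43), EIF2AK2 (-1.29) and EIF2AK1 (-1.15). EEF1B2 and EIF1AD, both at shared promoters, were called higher and EIF4A3 lower in both conditions. By the highest peak of each gene, 1 gene was called higher and 3 lower in stromal cells, and the share over all genes was not counted.

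Across genes with both marks, H3K27ac and H3K9ac levels had a Spearman rho of 0.56 in stromal (n = 85) and 0.58 in astromal cells (n = 56), and of 0.45 (n = 8510) and 0.41 (n = 5254) over all genes. Among the synthetases it was 0.66 (n = 30) and 0.78 (n = 20). Genes in such a correlation share the library and are not independent replicates, and sums over more peaks are larger for both marks.

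**Figure D4:**
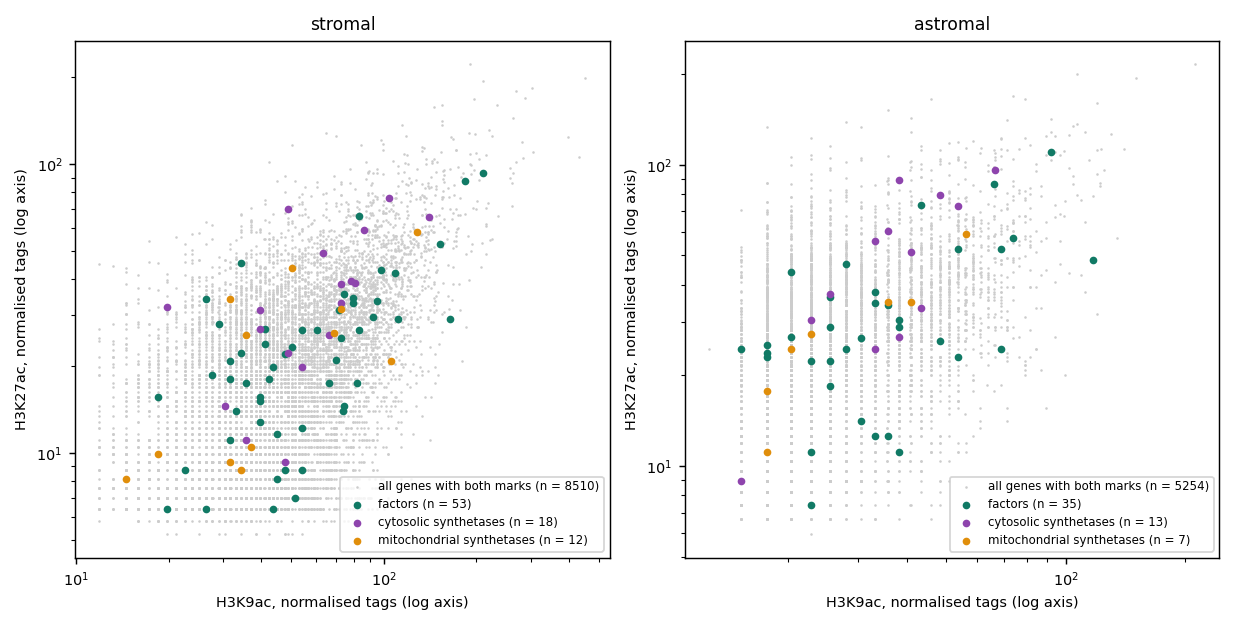
H3K27ac (vertical axis) against H3K9ac (horizontal axis), both in normalised tags on log axes, for all genes with both marks (grey), the initiation and elongation factors (green), the cytosolic (purple) and the mitochondrial (orange) synthetases, in stromal (left panel) and astromal cells (right panel). Each point is 1 gene; EIF1, with 210.0 H3K9ac and 93.7 H3K27ac tags in stromal cells, lies at the upper right.

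H3K9ac peaks of these genes lay mostly just downstream of the start site. Of peaks within 1 kb of it, 63.8% were downstream in the stromal list and 68.6% in the astromal list, against 64.7% and 68.3% of all peaks so placed. H3K27ac peaks were more evenly split, with 53.6% downstream in the stromal list and 53% in the astromal list. The median downstream H3K9ac peak lay at 286 bp in the stromal and 360 bp in the astromal list, and few peaks lay within 50 bp of the start (7 of 138 stromal and 1 of 70 astromal). In stromal cells 36 of 96 genes had H3K9ac on both sides of the start, 48 downstream alone and 12 upstream alone. Shares over all genes were not counted for these sides, for the H3K27ac split or for peaks within 50 bp.

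AARS is given as an example, on build hg19. Its H3K9ac peak lay in the promoter at chr16:70323035-70323245 in the stromal list, centred 272 bp downstream of the start, with 85.9 tags, and at chr16:70323128-70323328 in the astromal list, with 53.5. H3K27ac flanked it on both sides in both conditions, with 31.4 and 27.9 tags in stromal and 40.1 and 32.7 in astromal cells. Its H3K27ac total was thus 59.3 stromal and 72.8 astromal tags. EIF4A2 had peaks at chr3:186501133-186501343 and chr3:186501570-186501780 in the stromal list, with 81.9 and 70.0 tags, on either side of its start.

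**Figure D5:**
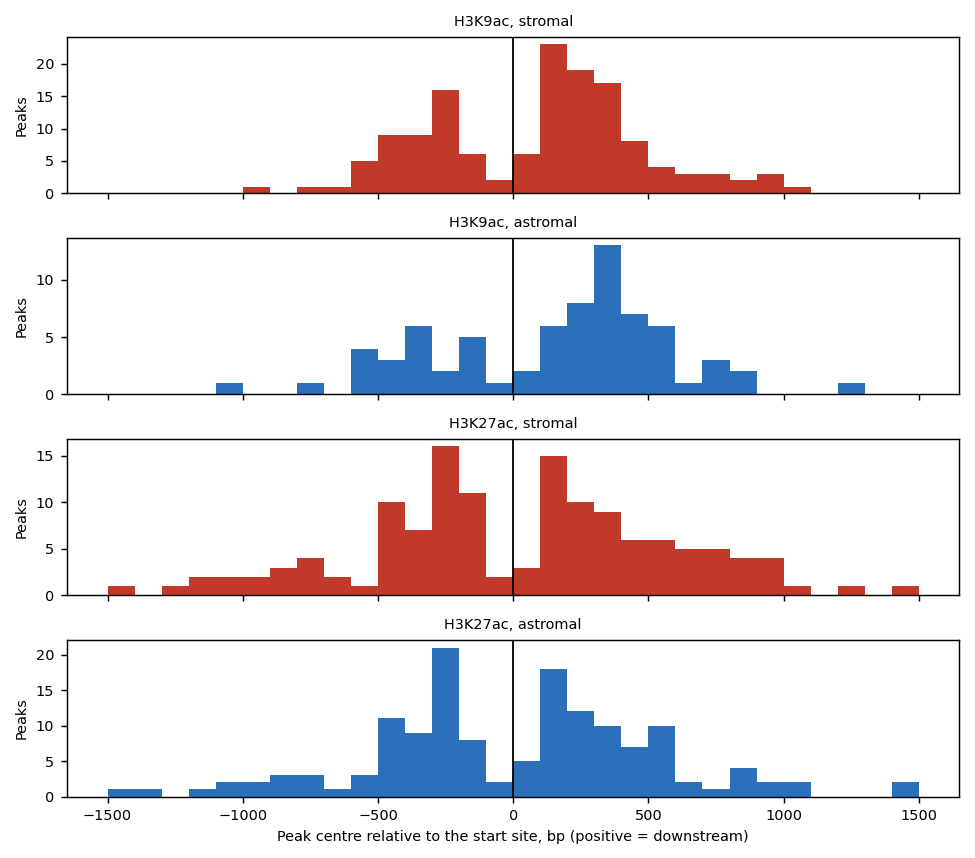
Number of peaks (vertical axis) by distance of the peak centre from the start site in bp (horizontal axis, 100-bp bins, positive downstream), for the 2 marks in stromal (red) and astromal (blue) libraries. Peaks sit on both sides of a gap at the start, with 63.8% of stromal H3K9ac peaks within 1 kb downstream and 53.6% of stromal H3K27ac peaks.

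Peaks beyond 5 kb of the start numbered 12 of 151 in the stromal and 4 of 76 in the astromal H3K9ac list. The share of all peaks beyond 5 kb was not counted, and the nearest start site need not be the gene a distant peak acts on. EIF2AK1 had peaks at -22010 and -22602 bp in stromal cells and at -22074 bp in astromal cells, with H3K27ac in both conditions. EEF2K had stromal H3K9ac at -10273 and -15091 bp. EIF2S3 had a stromal peak at 26952 bp with 23.8 tags.

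Peak by peak, 60 of the 151 stromal H3K9ac peaks (39.7%) overlapped an astromal peak by at least 1 bp and 60 of the 76 astromal ones (78.9%) a stromal peak, against 26.6% and 75.8% of all peaks. For H3K27ac 103 of 151 stromal peaks (68.2%) and 103 of 157 astromal peaks (65.6%) overlapped, against 58.4% and 60.8%. Stromal H3K9ac peaks that overlapped had a median of 41.6 tags and those that did not 29.1.

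Genes that act on this machinery but lie outside the name rule were examined as lists, to be read against all genes, of which 99.1% had H3K9ac in stromal cells and 46.8% in both lists. Calls over all genes were 5.98% higher and 3.56% lower for H3K9ac, and 5.54% and 6.2% for H3K27ac. Of 7 genes of the eIF2 stress response, all had both marks in both conditions. ATF4 itself had 93.8 stromal and 56.0 astromal H3K9ac tags. DDIT3, a transcription factor of that response, was called lower for H3K9ac, with 33.0 stromal and 50.9 astromal tags (centred log2 ratio -1.61, or -0.43 by the highest peak), and PPP1R15A, which directs dephosphorylation of eIF2, was called higher for H3K27ac, with 45.4 and 24.5 (1.06, or 0.23 by the highest peak).

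All 17 genes of mTORC1 and eIF4F control had H3K9ac in stromal cells and 10 in both lists. MTOR was called higher for H3K9ac, with 85.8 stromal and 15.3 astromal tags (1.5, or 0.93 by the highest peak). Its astromal H3K9ac rested on 6 tags before normalisation. The H3K27ac of MTOR was in the astromal list alone, with 19.3 normalised tags. MKNK2, a kinase of eIF4E, had 34.3 stromal and 12.6 astromal H3K27ac tags (1.61, and 1.64 by the highest peak), and RPTOR (-1.23, or -0.65 by the highest peak) and PABPC1 (-1.19, or -0.27) were called lower. All 5 termination and recycling genes had H3K9ac, 2 in both lists, and GSPT1, the release factor eRF3a (2.11, or 0.99 by the highest peak), and MCTS1 (1.11, or 0.33) were called higher for H3K27ac. Of 10 genes of mitochondrial translation, 6 were in both H3K9ac lists. MTIF3, a mitochondrial initiation factor, was called higher for H3K9ac (1.17, or 0.03 by the highest peak) and lower for H3K27ac (-2.05, or -0.80). TUFM, the mitochondrial elongation factor, was called lower for H3K27ac (-1.61, or -0.77) and MTRF1L higher (1.47, or 0.05). Of 9 synthetase partners 6 were named, 5 of them in both H3K9ac lists, and of 5 hypusine and diphthamide genes 2 were, with no call in either list.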

How the data were processed

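Per the submitters' processing notes, the authors used CASAVA 1.8.2, HOMER and Bowtie, with hg19 as the genome build, and each peak list came from 1 library. The deposited signal is the tag count per peak normalised by the authors to 10000000 tags. No source used here gives the calling thresholds for H3K9ac. The deposited H3K27ac files give fold over input and over local background as a ratio, and the deposited H3K9ac files give the distance to the nearest start site and its gene. H3K9ac tags and depth were estimated from the even steps of the deposited signal (all values within 0.044 of a whole tag), and H3K27ac tags follow from the totals per the file headers. The 4 input libraries were not analysed here on their own.

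Per gene, normalised tags were summed over its peaks. Log2 ratios of stromal over astromal tags had exact (Clopper-Pearson) 95% intervals, which cover counting error only, and were centred on the median of all genes. The calling rule was tested on simulated data. Alternatives were the highest peak, no centring, other fold, tag and distance minimums and stricter peaks. Start sites came from the H3K9ac files, and strand from RefSeq (79 genes) or from 2 peaks (14 genes), for 93 of 96 genes. Python 3.11.15 with numpy 2.4.6, pandas 2.3.3, scipy 1.17.1 and matplotlib 3.10.9 was used.

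Values of 1 gene are counted in the summaries and are not reported here on their own. The genes, lists and tests were chosen with earlier results of these data known. Genes were named if called, highest or lowest in a role group for stromal H3K9ac, listed for H3K27ac in 1 condition or none, among the 10 strongest with stromal H3K9ac alone, among the 5 highest or lowest ratios, or on a fixed list of 16 well-known factors. Members printed for other reasons (high H3K27ac, distant peaks, sequence matches, pairs) were chosen after their values were seen.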

Additional observations from a re-analysis of the deposited data

How the results depend on the processing

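Of 84 alternative values of the main results, 60 stayed within 1.5 times (counts) or within the counting interval typical of 1 gene (ratios), and 24 moved. By the highest peak of each gene, 1 gene was called higher and 0 lower for H3K9ac, and 0 higher and 0 lower for H3K27ac; H3K27ac against H3K9ac then gave 1 higher and 3 lower in stromal and 1 higher and 0 lower in astromal cells. Without centring, 22 genes were higher and 0 lower for H3K9ac and 1 higher and 8 lower for H3K27ac. Over all genes, 5378 of 5706 uncentred ratios lay above 0 for H3K9ac and 4992 of 7964 below 0 for H3K27ac. Except for calls between conditions by the highest peak, shares of all genes called or listed were not counted at the alternative settings. Such counts therefore describe the settings and not these genes. At 1.5-fold, 3 were lower for H3K9ac, and 5 higher and 7 lower for H3K27ac. Where each library had to hold at least 20 tags of a gene, 0 were lower for H3K9ac and 0 higher and 0 lower for H3K27ac, since the called genes hold few tags. Within 1 kb of the start, 1 gene, EIF3B, was higher for H3K9ac. At 8-fold over input, 5 genes had no H3K27ac. With H3K27ac peaks of at least 10 normalised tags, 3 genes were in the stromal list alone, 13 in the astromal list alone and 19 in neither. With absent peaks entered as 0, the log2 ratio of median stromal H3K27ac, cytosolic over mitochondrial synthetases, was 1.64, against 0.49. Within that interval, this ratio was 0.15 by the highest peak, its astromal H3K9ac counterpart was 1.94 with absent peaks as 0, against 0.82, the median H3K9ac log2 ratio was 0.93 without centring, against -0.06, and the median H3K27ac over H3K9ac ratio was -0.03 stromal and -0.07 astromal by the highest peak, against 0.16 and 0.15. Of 28 alternatives for the 7 called genes, 18 kept the call and 10 lost it, with no reversal. The looser 1.5-fold setting could not lose a call, and by the highest peak all 7 lost it. The minimum of 20 tags is not among the 28, since it left none of the 7 with a ratio. No paired analysis was possible because each group holds 1 library. Depth limits the astromal H3K9ac values most, with a median of 9 tags per peak, and leaving out a library was not possible.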

Other observations

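Of the 96 genes, 23 had another gene named within 2 kb in the H3K9ac lists, 4 of 20 cytosolic and 5 of 16 mitochondrial synthetases among them. Histone acetylation at such a promoter belongs to both genes, as at EARS2 with UBFD1, EEF1B2 with NDUFS1, EIF2A with SERP1 (a stress-linked membrane protein), FARS2 with LYRM4 (which serves iron-sulphur clusters), RARS2 with ORC3 (a replication origin subunit) and YARS with S100PBP.

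The other motifs searched were as follows. The ETS sequence CCGGAAG was in 36.7% of the 79 promoters, against 23.1% of listed genes and 12.2% of all genes, and in 9 of 16 cytosolic and 6 of 13 mitochondrial synthetases. The YY1 sequence ATGGCGG was in 20.3%, against 13% and 6.66%. CCAAT was in 46.8%, against 42.6% and 39.7%, and the GC box GGGCGG in 78.5%, against 77% and 48.3%. TATAAA was in 6.33%, against 7.83% and 14%, at EIF4A2, EIF4EBP3, EEF2, GARS and WARS. The NRF1 palindrome was in 1.27%, at MARS2 alone, against 2.84% and 1.52%. All were searched on both strands, and the ETS and YY1 letters do not overlap the ATF4 element.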
